A study of Mus musculus with 24 samples.

Results

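The genes described here are 8 amino acid carriers, Slc3a2, Slc7a5, Slc7a11, Slc1a4, Slc1a5, Slc7a1, Slc38a1 and Slc38a2, and the glutamine synthetase gene Glul. They were chosen by symbol, with earlier results of these data known, and all 9 were found among the 35975 genes of the YAPCA RNA-seq table. The cells were primary periosteal cells, cultured from the membrane that covers the outer surface of mouse bone. YAPCA cells carried 3 alleles. The first, B6.C-tg(CMV-Cre)1Cgn/J, is a Cre transgene under the CMV promoter, which is active in most tissues. The second, tetO-YAPS127A, is a doxycycline-responsive YAP transgene with the S127A change, which removes a site where Hippo kinases restrain YAP. The third, Gt(ROSA)26Sortm1(rtTA,EGFP)Nagy/J, places the doxycycline-dependent activator rtTA and EGFP at the Rosa26 locus. Wild-type cells were labelled C57BL6, with none of these alleles named. The groups were YAPCA cells given 1 µM doxycycline (Dox), untreated YAPCA cells with the same 3 alleles, wild-type cells given 1 µM Dox, and untreated wild-type cells. All cells were grown with 15% serum, 1% GlutaMAX, a stable source of glutamine, and 0.1% β-mercaptoethanol, a thiol reductant. Dox was given in 10% serum and dissolved in water, and by the labels the untreated controls had no vehicle. The sources used here do not give the duration of treatment, the age of the mice or how many mice each culture came from. RNA-seq and, for open chromatin, ATAC-seq gave 8 groups of 3 samples. The samples of a group are labelled technical replicates, so each p-value reflects only how much these samples vary, and that variation may be technical.

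Amino acids cross the plasma membrane through families of solute carriers, some of which work by exchange and some by sodium-coupled uptake. SLC3A2 (4F2hc) is a heavy chain that carries several SLC7 light chains to the cell surface. Among these, SLC7A5 (LAT1) exchanges glutamine for leucine and other large neutral amino acids, and SLC7A11 (xCT) takes up cystine for glutathione synthesis in exchange for glutamate. SLC1A5, SLC38A1 and SLC38A2 bring in glutamine and other neutral amino acids, SLC7A1 takes up arginine and lysine, and GLUL makes glutamine from glutamate and ammonia. In RefSeq's annotation of GRCm38.p6 the genes lie at chr19:8706882-8723369 (Slc3a2), chr8:121881146-121907686 (Slc7a5), chr3:50364936-50499087 (Slc7a11), chr11:20302180-20332713 (Slc1a4), chr7:16781334-16798274 (Slc1a5), chr5:148327410-148399904 (Slc7a1), chr15:96571418-96643438 (Slc38a1), chr15:96687392-96699728 (Slc38a2) and chr1:153899929-153909723 (Glul), so Slc38a1 and Slc38a2 lie close together on chromosome 15.

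The 6 YAPCA RNA libraries held 20771096 to 27482996 reads with Dox and 16351891 to 28734643 without. The YAP target genes Ctgf and Cyr61 (current names Ccn2 and Ccn1), secreted matrix-associated proteins, had log2 changes of 0.79 ± 0.062 and 0.60 ± 0.039 (SE; limma, adjusted p = 9.98e-08 and 1.06e-08). Yap1 averaged 4798 ± 86.3 normalised read counts with Dox and 5041 ± 94.7 without (SD, n = 3 each) and did not pass (limma, adjusted p = 0.0697). The sources used here do not say whether transgene reads count towards Yap1, so Yap1 does not check the labels. Of 8 periosteal and fibroblast markers, all were detected, 0 rose and 6 fell with Dox, beside 14.3% and 13.5% of all tested genes, and their summed normalised read counts were 460508 to 473105 with Dox and 576213 to 597128 without. Summed macrophage and leukocyte markers were 420 to 422 with Dox and 399 to 459 without, with 4 of 6 tested and 0 called, and the leukocyte gene Ptprc was at 0 in all Dox libraries and at or near 0 in untreated ones. The summed endothelial markers ran from 78.8 to 118 with Dox and from 60.5 to 85.2 without, with 3 of 4 tested and 0 called, and the summed osteoclast markers from 1634 to 1676 with Dox and from 1615 to 1690.05 without, again with 3 of 4 tested and 0 called. The osteoclast sum was nearly all Ctsk, while Acp5 averaged 11.5 with Dox and 16.3 without, Oscar 9.94 and 14.7, and Calcr was at or near 0. The epithelial sum, 693 to 771 with Dox and 463 to 521 without, was nearly all Krt19, which rose, while Epcam and Krt8 were at or near 0. The neural and glial sum was 773 to 786 with Dox and 989 to 1012 without, with Tubb3 falling and the glial gene Sox10 near 0, and the muscle sum was 21.4 to 43.1 with Dox and 23.9 to 54.6 without, with Myf5 at 0. The part of these marker differences in the results below was not tested, and in cells measured in bulk, fewer cells of a type and less RNA per cell cannot be told apart.

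The first question was how the RNA of the 9 genes differed between Dox-treated and untreated YAPCA cells. The arginine carrier gene Slc7a1 rose by 40.5%, the cystine carrier gene Slc7a11 fell by 24.6%, the neutral amino acid carrier gene Slc1a4 fell by 16.7%, and the glutamine carrier gene Slc38a2 fell by 10.7%. The other 5, Slc3a2, Slc7a5, Slc1a5, Slc38a1 and Glul, did not pass, and the largest log2 change of these in absolute size was -0.054, for Slc3a2. A gene passed at a Benjamini-Hochberg adjusted p below 0.05 over 13477 genes tested with limma on log2(normalised read count + 1). By this rule 4 of 9 passed, against a background of 27.9% of all tested genes. In the authors' deposited table the same 4 of 9 had a DESeq2 adjusted p below 0.05, against 20.8% of the genes given an adjusted p there. The 1 gene that rose stands beside a background of 14.3%, and the 3 that fell beside 13.5%. The Dox and untreated libraries did not overlap for 5 of the 9, against 41% of all tested genes. The median log2 change was -0.03 over the 9 genes and 0.00072 over all tested genes.

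Among the 4F2hc genes, the heavy chain and its leucine-exchanging partner did not pass. Slc3a2 had 3869.5, 3934 and 3849.9 normalised read counts in the Dox libraries, against 4108, 4043 and 3947 in the untreated libraries. Every Dox library lay below every untreated one, but by a small margin. The log2 change was -0.05 ± 0.028 (SE, 95% interval -0.11 to 0.01), which did not pass (limma, adjusted p = 0.18). Slc7a5 had 5150.3, 5112 and 5091 normalised read counts with Dox, against 5044, 5209.8 and 4701 without. The untreated libraries lay both above and below the Dox libraries, and the log2 change was 0.04 ± 0.034 (95% interval -0.03 to 0.11; limma, adjusted p = 0.436). The sources used here do not say whether counting used the strand of a read. By RefSeq, Snhg1 lies beside Slc3a2 and BC048644 beside Slc7a5 without overlap, while Gm32457 lies within Slc38a1 and Mir8114 overlaps the start of Glul, so reads of these RNA genes cannot be told apart from those of Slc38a1 and Glul where they overlap.

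Slc7a11, the light chain for cystine, fell. It had 387, 341 and 345 normalised read counts in the Dox libraries, against 489, 425 and 509 in the untreated libraries. All 3 Dox libraries lay below all 3 untreated ones. The means were 358 ± 25.3 with Dox and 475 ± 44.2 without (SD, n = 3 each), a log2 change of -0.40 ± 0.077 (SE, 95% interval -0.57 to -0.24; limma, adjusted p = 0.000918). Of all tested genes, 10.2% had a larger absolute change. Of the 6 SLC7 genes whose products pair with 4F2hc, a list drawn up after values were seen, 5 were tested, of which 1 rose, 2 fell and 2 did not pass, beside 14.3% rising and 13.5% falling over all tested genes. Besides Slc7a11, the basic amino acid exchanger gene Slc7a7 fell, to 155 ± 10.9 normalised read counts with Dox, against 222 ± 16.9 without (limma, adjusted p = 0.000849). Slc7a6, a related exchanger, rose to 2328 ± 9.16 with Dox, against 2157 ± 87.4 without (limma, adjusted p = 0.026). That call was lost with DESeq2 (adjusted p = 0.0529) and without Dox replicate 1 (0.0758), Dox replicate 2 (0.0628), untreated replicate 1 (0.13) or untreated replicate 2 (0.0758).

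The 250 bases before the RefSeq start site of each gene that passed were read from RefSeq's table for GRCm38.p6, the assembly also called mm10, to show the sequence at the start of the genes that moved. The table held windows for 6 of the 9 genes, Slc3a2, Slc7a11, Slc1a4, Slc7a1, Slc38a2 and Glul, and 7 windows in all, since Slc7a1 has 2 start sites, of which the upstream one is shown. Capitals mark matches to the motifs searched, and all 4 genes lie on the minus strand. The stretches are chr3:50443614-50443863 for Slc7a11, chr5:148399905-148400154 for Slc7a1, chr11:20332714-20332963 for Slc1a4 and chr15:96699729-96699978 for Slc38a2.
Slc7a11: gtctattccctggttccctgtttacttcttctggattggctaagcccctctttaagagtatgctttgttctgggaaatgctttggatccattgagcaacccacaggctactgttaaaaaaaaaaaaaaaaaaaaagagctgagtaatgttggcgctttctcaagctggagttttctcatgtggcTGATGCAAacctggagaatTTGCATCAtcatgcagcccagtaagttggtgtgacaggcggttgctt
Slc7a1: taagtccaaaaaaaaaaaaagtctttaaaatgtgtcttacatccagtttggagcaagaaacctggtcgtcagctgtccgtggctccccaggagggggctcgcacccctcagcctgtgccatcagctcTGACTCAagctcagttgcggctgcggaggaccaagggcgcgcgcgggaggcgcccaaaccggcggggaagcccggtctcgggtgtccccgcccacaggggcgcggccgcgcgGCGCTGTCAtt
Slc1a4: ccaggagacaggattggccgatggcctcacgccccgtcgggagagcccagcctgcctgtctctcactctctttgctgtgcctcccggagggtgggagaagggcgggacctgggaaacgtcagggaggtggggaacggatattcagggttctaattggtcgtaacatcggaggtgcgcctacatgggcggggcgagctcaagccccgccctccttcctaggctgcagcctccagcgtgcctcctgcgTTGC
Slc38a2: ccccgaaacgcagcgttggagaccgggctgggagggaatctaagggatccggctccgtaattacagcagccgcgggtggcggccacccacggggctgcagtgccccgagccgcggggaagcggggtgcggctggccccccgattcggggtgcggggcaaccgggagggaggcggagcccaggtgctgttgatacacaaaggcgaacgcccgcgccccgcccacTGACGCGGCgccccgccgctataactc

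Motifs were searched on both strands of the whole 300-base windows, which run 50 bases past the start site, and positions count from the start site as 0. The composite element bound by ATF4, TGATGNAA, stood in Slc7a11 at -66 to -59 and, on the reverse strand, at -47 to -40. In Slc1a4 it stood on the reverse strand at -4 to 3, so only its first 4 bases are in the stretch shown. The same element is in 3.97% of all 32851 RefSeq windows of this length. The AP-1 motif TGANTCA stood in Slc7a1 at -123 to -117 and is in 7.81% of all windows. The antioxidant response motif TGACNNNGC, known from NRF2 targets, stood in Slc38a2 at -27 to -19 and, on the reverse strand, in Slc7a1 at -11 to -3, and is in 12.4% of all windows. It does not overlap the AP-1 match. The TEAD motif GGAATG, in 14.7% of all windows, and the E-box CACGTG, in 7.15%, had no match in any of the 7 windows. None of the 5 motifs had a match in the windows of Slc3a2 and Glul or at the downstream start of Slc7a1. A match is a description of these letters and does not show that a factor binds.

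Of the neutral amino acid exchangers of the SLC1 family, Slc1a4 fell and Slc1a5 did not pass. Slc1a4 (ASCT1), which exchanges alanine, serine and cysteine, had 1368, 1385 and 1455 normalised read counts in the Dox libraries, against 1766, 1666 and 1619.7 in the untreated libraries. The groups did not overlap. The means were 1403 ± 46.1 with Dox and 1684 ± 74.7 without (SD, n = 3 each), a log2 change of -0.26 ± 0.041 (SE, 95% interval -0.35 to -0.18; limma, adjusted p = 0.000162). Slc1a5 (ASCT2), which also exchanges glutamine, had 3204, 3171 and 2940.3 with Dox, against 3135, 3083 and 2980.45 without. Its groups overlapped, and the log2 change was 0.02 ± 0.036 (95% interval -0.06 to 0.09; limma, adjusted p = 0.77). The 95% intervals of Slc1a4 and Slc1a5 do not overlap, though the difference between the genes was not tested.

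Slc7a1 (CAT1), the carrier of arginine and lysine, was the only one of the 9 that rose. It had 4733, 4703 and 4620.1 normalised read counts in the Dox libraries, against 3473, 3482 and 3048 in the untreated libraries. Every Dox library was higher than every untreated one. The means were 4685 ± 58.4 with Dox and 3334 ± 248 without (SD, n = 3 each), a log2 change of 0.49 ± 0.042 (SE, 95% interval 0.40 to 0.58; limma, adjusted p = 2.43e-07). Of all tested genes, 6.74% had a larger absolute change. The related cationic carrier gene Slc7a2 went the other way, with 449, 478 and 478 normalised read counts with Dox, against 691, 659 and 763 without, a log2 change of -0.59 ± 0.062 (limma, adjusted p = 2.67e-06).

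The sodium-coupled carriers of the SLC38 family take up glutamine, alanine and other small neutral amino acids. Slc38a2 (SNAT2), which in cultured cells is known to be induced when amino acids run short, had 6957.5, 6966 and 7035 normalised read counts in the Dox libraries, against 7907, 7779.6 and 7786 in the untreated libraries. The groups did not overlap. The means were 6986 ± 42.7 with Dox and 7824 ± 71.9 without (SD, n = 3 each), a log2 change of -0.16 ± 0.025 (SE, 95% interval -0.22 to -0.11; limma, adjusted p = 0.000109). This was a small change: 36.5% of tested genes had a larger one. Slc38a1 (SNAT1) had 1492, 1455 and 1612 with Dox, against 1580.3, 1508 and 1561 without. The groups overlapped, with a log2 change of -0.03 ± 0.042 (95% interval -0.12 to 0.06; limma, adjusted p = 0.667).

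Glul, whose enzyme makes glutamine inside the cell, had 1146, 1123 and 1137 normalised read counts in the Dox libraries, against 1175, 1070.1 and 1098 in the untreated libraries. The groups overlapped, and the log2 change was 0.03 ± 0.044 (95% interval -0.06 to 0.12; limma, adjusted p = 0.69). The 95% intervals of the 5 genes that did not pass lay between -0.12 and 0.12 on the log2 scale.

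**Figure D1:**
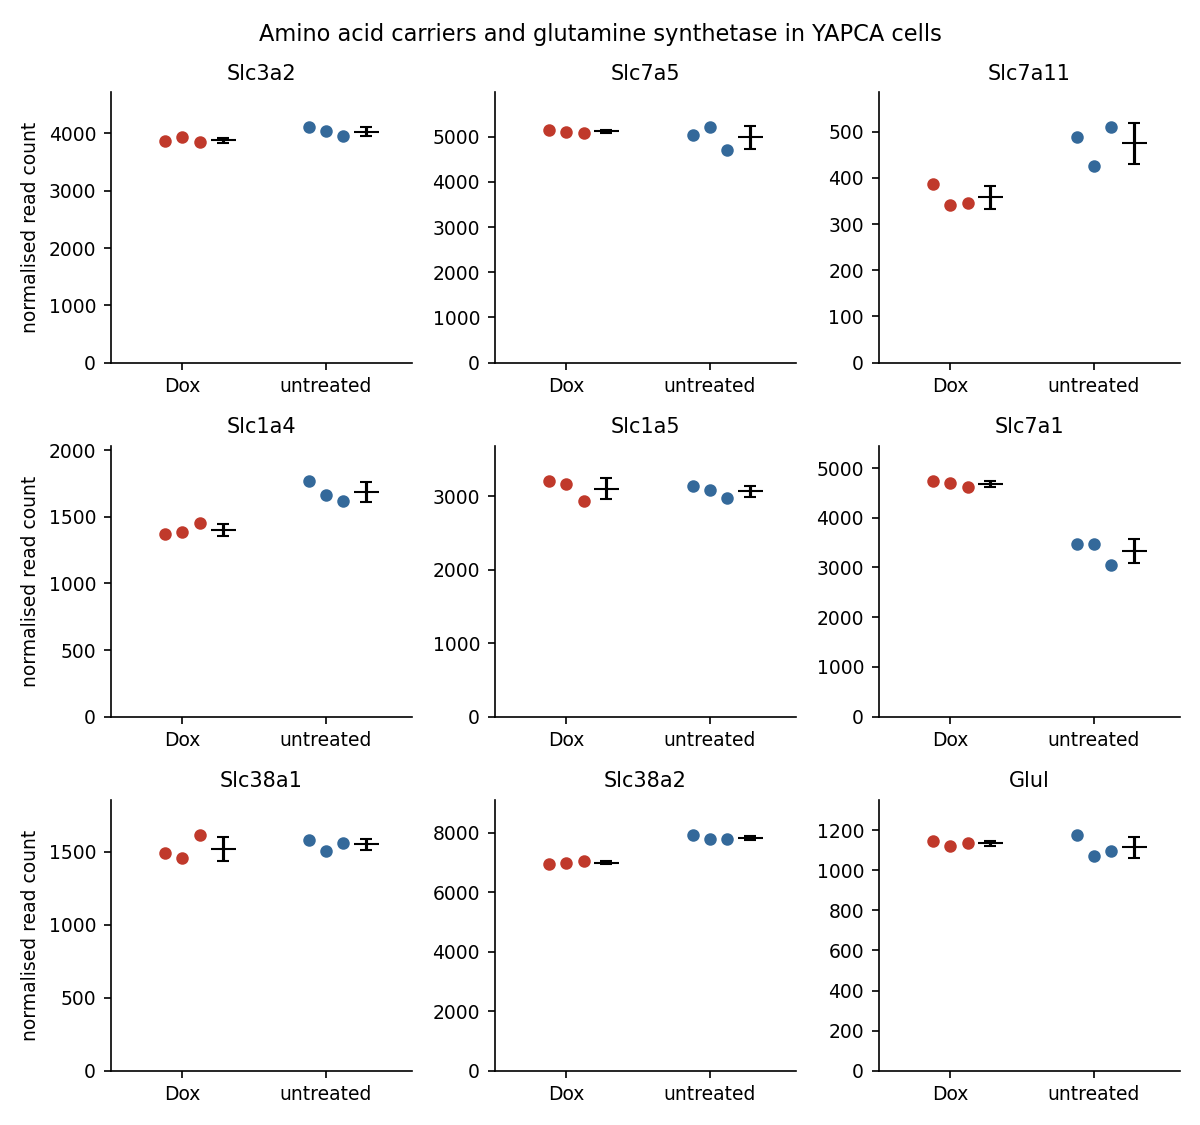
Normalised read counts of the 9 genes in the 3 Dox and 3 untreated YAPCA RNA libraries; red and blue points are single libraries, and the black bar is the mean with its SD. Slc7a1 is higher with Dox (mean 4685 against 3334), Slc7a11 (358 against 475), Slc1a4 (1403 against 1684) and Slc38a2 (6986 against 7824) are lower, and the Dox and untreated points of Slc7a5, Slc1a5, Slc38a1 and Glul overlap.

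**Figure D2:**
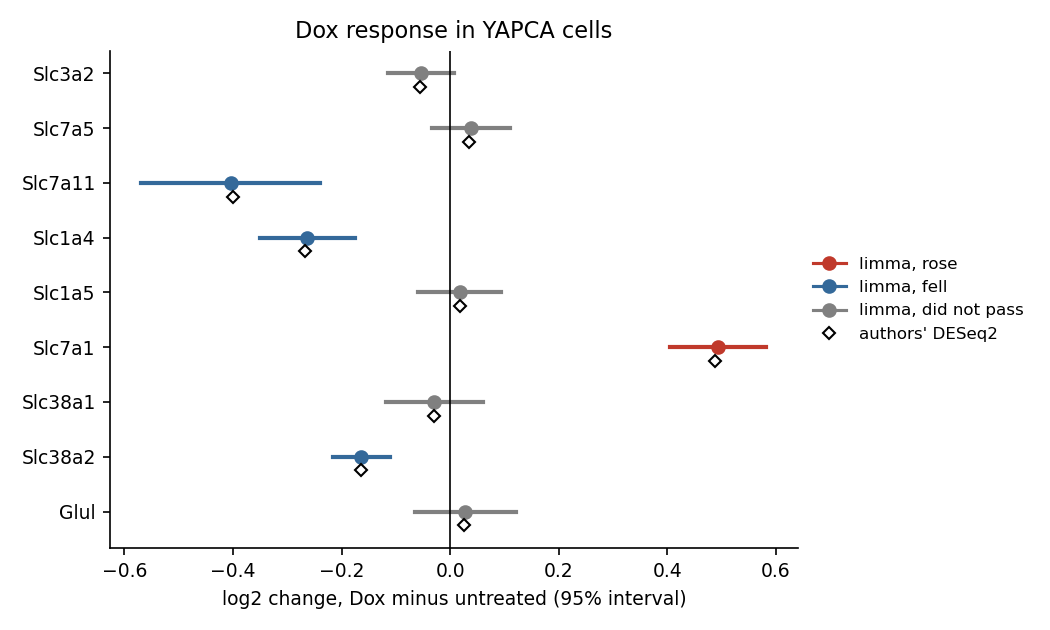
Log2 change (Dox minus untreated) of the 9 genes in YAPCA cells with its 95% interval from limma, coloured by whether the gene rose, fell or did not pass, and the authors' DESeq2 value as open diamonds. Slc7a1 stands at 0.49 and Slc7a11 at -0.40, and the intervals of Slc3a2, Slc7a5, Slc1a5, Slc38a1 and Glul cross 0.

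In the authors' deposited table, the DESeq2 log2 changes of the 4 genes were 0.49 ± 0.045 for Slc7a1, -0.40 ± 0.10 for Slc7a11, -0.27 ± 0.055 for Slc1a4 and -0.16 ± 0.029 for Slc38a2. The genes whose profile over the 6 libraries was closest to each were found by the root-mean-square difference of centred log2 values, over 10562 genes averaging 100 or more normalised read counts. Pvr, a cell adhesion receptor, and Efnb2, the ligand ephrin-B2, were closest to Slc7a1, at 0.020 and 0.023. Zfand1 and Kiz were closest to Slc7a11, at 0.033 and 0.034, and Nicn1 and Nat6 to Slc1a4, at 0.027 and 0.029. Cnppd1 and Gabarap, an autophagy protein, were closest to Slc38a2, at 0.0090 and 0.010. For the genes that did not pass, the closest were Rbpj for Slc3a2, Zswim8 for Slc7a5, Dazap1 and Ilkap for Slc1a5, Tug1 and Atrx for Slc38a1, and Mbtps2 and Ppm1f for Glul, at 0.0086 to 0.015.

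The 5 companion lists set the 9 genes in their pathway. Over all tested genes 27.9% passed, with 14.3% rising and 13.5% falling, and each count is read against these shares. The shares include genes of low counts: with the filter raised to a mean of at least 100, 3618 of 10563 genes passed. The lists were chosen with earlier results of these data known and were not matched to the background by level. Of 33 other amino acid carrier genes, 25 were tested, and 4 rose, 8 fell and 13 did not pass, with a median log2 change of -0.07. The share that passed was 48%, against 27.9%, and the share that rose was near the background. Slc43a2 (LAT4), an efflux carrier of large neutral amino acids, fell most by log2 change among the 4 named here, with 293, 268 and 308 normalised read counts with Dox, against 583, 530.4 and 604 without. Its log2 change was -0.98 ± 0.072 (SE; limma, adjusted p = 5.12e-08). The taurine carrier gene Slc6a6 fell by 0.30 on the log2 scale and the glycine carrier gene Slc6a9 by 0.45 (limma, adjusted p = 1.69e-07 and 5.89e-06). The Dox and untreated libraries of both did not overlap.

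Of 31 enzyme genes of glutamine, glutamate, asparagine, proline and serine metabolism, all were tested, and 11 rose, 6 fell and 14 did not pass, with a median of 0.03. The share that passed was 54.8%, against 27.9% of all tested genes. Enzymes that use glutamine as a nitrogen donor moved in different directions. Ctps, which makes CTP, had 7735 ± 239 normalised read counts with Dox and 5663 ± 29.0 without, a log2 change of 0.45 ± 0.028 (limma, adjusted p = 7.79e-09). Ppat, the first enzyme of purine synthesis, had 877 ± 3.93 with Dox and 684 ± 51.6 without, a log2 change of 0.36 ± 0.055 (limma, adjusted p = 0.000117). Gfpt2, of the hexosamine pathway, had 399 ± 18.8 with Dox and 518 ± 3.80 without, a log2 change of -0.38 ± 0.06 (limma, adjusted p = 0.000191). The related gene Gfpt1 went the other way, with 4837 ± 111 with Dox and 4384 ± 171 without (limma, adjusted p = 0.00349). Ctps2, related to Ctps, fell to 693 ± 64.4 with Dox, against 800 ± 26.5 without (limma, adjusted p = 0.0174). Asns, which uses glutamine to make asparagine, had 4207 ± 56.7 with Dox and 4068 ± 51.0 without and did not pass (limma, adjusted p = 0.216).

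Of 16 glutathione and thiol genes, all were tested, and 2 rose, 5 fell and 9 did not pass, with a median of -0.07. The share that passed was 43.8%, against 27.9% of all tested genes, and the share that rose was near the background of 14.3%. The 2 subunits of the enzyme that starts glutathione synthesis, which uses the cysteine that SLC7A11 supplies as cystine, both fell. The modifier subunit gene Gclm had 1338, 1333 and 1354 normalised read counts with Dox, against 1936, 1951 and 2052 without, a log2 change of -0.56 ± 0.036 (SE; limma, adjusted p = 1.23e-08). The catalytic subunit gene Gclc had 1419, 1406 and 1364 with Dox, against 1939, 1893 and 2052 without, a log2 change of -0.49 ± 0.039 (limma, adjusted p = 1.10e-07). The groups did not overlap for either subunit. Srxn1, which repairs oxidised peroxiredoxins, had a log2 change of -0.47 ± 0.033, and Nqo1, a quinone reductase, one of -0.42 ± 0.033 (limma, adjusted p = 2.74e-08 and 1.09e-07). The 2 genes of the list that rose were Txnrd1 and Cth. Txnrd1 had 20684 ± 551 normalised read counts with Dox and 17609.5 ± 341 without (limma, adjusted p = 6.25e-06). Cth had 397 ± 8.64 with Dox and 321 ± 25.2 without (limma, adjusted p = 0.00457).

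Of 35 genes of amino acid sensing by GCN2, ATF4 and mTORC1, all were tested, and 2 rose, 10 fell and 23 did not pass, with a median of -0.07. The share that passed, 34.3%, was near the 27.9% of all tested genes. By direction, 10 fell and 2 rose, while over all tested genes 13.5% fell and 14.3% rose. Atf4, whose protein is made when amino acids are scarce, had 6124, 6152 and 6012 normalised read counts with Dox, against 6273, 6329.9 and 6045 without, which did not pass (limma, adjusted p = 0.499). The mTORC1 inhibitor gene Ddit4 had 340.5, 347 and 385 with Dox, against 1042, 959 and 1017 without. Trib3 had 390.3, 379 and 404 with Dox, against 649, 631 and 715 without. Ddit3 and Atf5, both of the same stress response, had 481 ± 32.7 and 3834 ± 70.1 with Dox, against 756 ± 30.0 and 4761 ± 106 without. All 4 fell (limma, adjusted p at most 6.92e-07). Myc, a transcription factor gene, had 2173, 2222 and 2212 with Dox, against 1762, 1880.1 and 1721 without, and rose (limma, adjusted p = 1.58e-05).

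**Figure D3:**
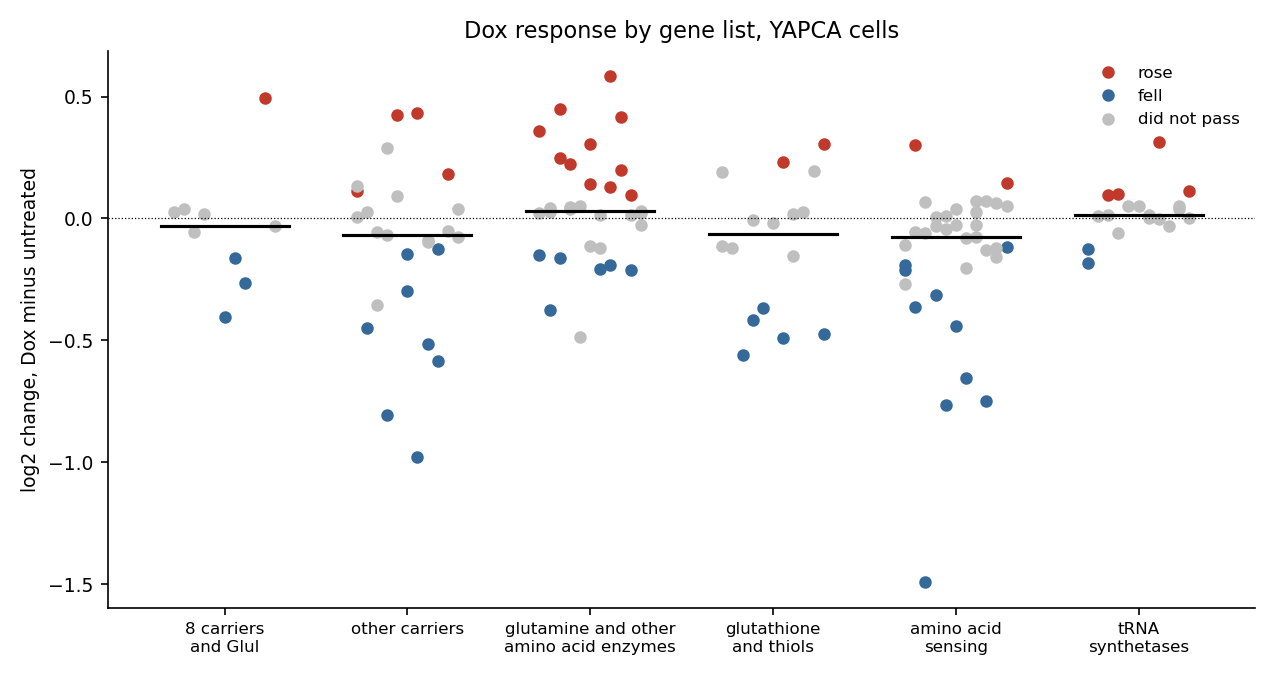
Log2 change (Dox minus untreated) of every tested gene in the 6 lists, in YAPCA cells; red points rose, blue points fell and grey points did not pass, and the black line is the median of a list. The medians lie between -0.07 and 0.03, and the lowest point is Ddit4 at -1.49.

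The next question was whether chromatin sites near the 9 genes differed in accessibility. The authors' deposited list holds 30509 YAPCA sites, of which 26615 (87.2%) gained and 3894 lost accessibility with Dox by the authors' log2 fold. These are group values without a spread between libraries, so no test was added. By nearest gene body, 10 sites belonged to 6 of the 9 genes, of which 8 were gained and 2 lost. Of all RefSeq protein-coding genes, 37.3% had at least 1 site. Slc1a4, Slc1a5 and Glul had none by this assignment.

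Both lost sites lay in Slc7a11, which had the largest fall in RNA of the 9. The site at chr3:50443993-50444218 had its centre 492 bases before the RefSeq start site, within the annotated gene span, which reaches further upstream. Its log2 accessibility was 6.95 with Dox and 7.35 without, a difference of -0.39 (authors' FDR 0.0473). The site at chr3:50402534-50402613, within the gene and 41040 bases after the start, was at 3.33 with Dox and 4.57 without, a difference of -1.24 (authors' FDR 0.0355). At 80 bases, this second site was the narrowest and the least accessible of the sites assigned to the 9 genes. In an extra sheet for chromosome 3, the headings of the 2 groups are exchanged for all 1932 shared sites. The direction given here follows the main sheet, where all 30509 folds equal Dox minus untreated.

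The sites of the other carriers were gained. Slc7a1 had a site within the gene, chr5:148361235-148362275, at 10.37 with Dox and 9.95 without (difference 0.42, authors' FDR 9.57e-09), and a site 43709 bases from it, chr5:148443613-148444330, at 9.81 with Dox and 9.43 without (difference 0.38, FDR 1.86e-05). Slc7a5, whose RNA did not pass, had a site within the gene, chr8:121901857-121902315, at 10.78 with Dox and 10.35 without, with an FDR as small as 4.6e-09. Slc38a1 had a site within the gene, chr15:96617562-96617879, at 7.68 with Dox and 7.19 without (FDR 0.00319). Slc38a2, whose RNA fell, had 2 gained sites outside it. The site at chr15:96729871-96730234, 30143 bases away, was at 9.82 with Dox and 9.58 without (FDR 0.0163), and the site at chr15:96730322-96730828, 30594 bases away, at 8.70 with Dox and 8.43 without (FDR 0.0449). Slc3a2 had a site in the gene, chr19:8712843-8713169, 891 bases after the start, with a difference of 0.22 (FDR 0.0387), and a site outside it, chr19:8702191-8702778, with a difference of 0.31 (FDR 0.0115). The changes of RNA and of accessibility thus had the same sign at Slc7a1 and Slc7a11 and opposite signs at Slc38a2. Within 100 kb of the Slc1a4 start, whichever gene was nearest, 5 sites were gained, by 0.23 to 0.94, and 1 was lost, chr11:20341129-20341652, by a difference of -0.32 (FDR 0.0147). Within 100 kb of a Slc7a1 start, 3 sites were gained and 1 was lost, chr5:148489404-148490310, by a difference of -0.24 (FDR 0.032). By the same window Slc3a2 had 7 sites, Slc38a2 had 7 and Glul had 3, all gained, and Slc7a11 had its 2 lost sites.

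**Figure D4:**
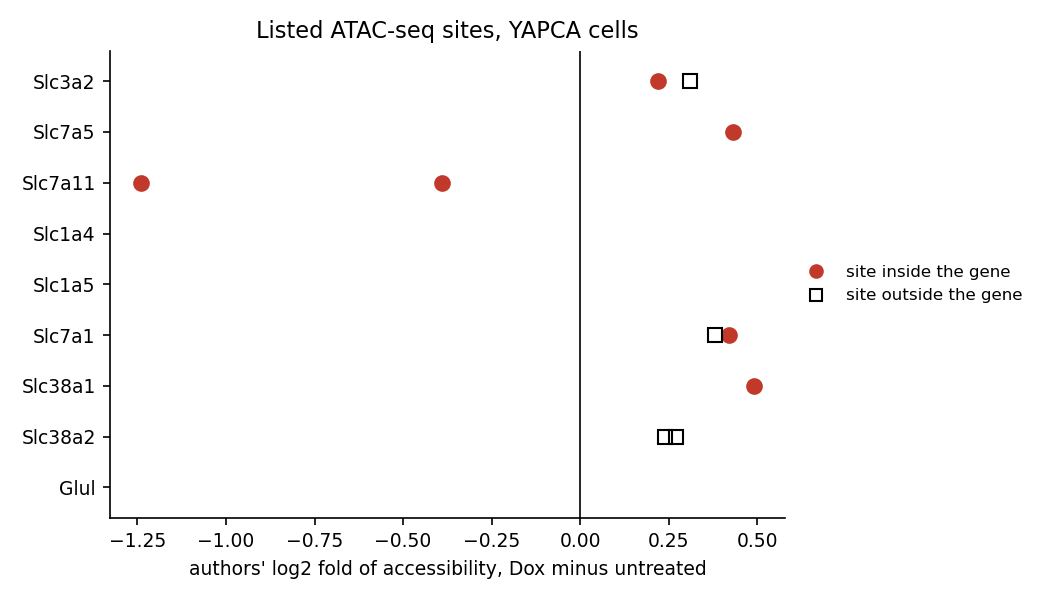
Authors' log2 fold of accessibility (Dox minus untreated) of the 10 sites assigned to the 9 genes in YAPCA cells; filled circles lie inside the gene and open squares outside. The 2 sites of Slc7a11 lie at -1.24 and -0.39, the 8 others between 0.22 and 0.49, and Slc1a4, Slc1a5 and Glul have none.

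Wild-type cells received Dox without the transgene. The authors' deposited table lists 98 genes for these, of which 23 rose and 75 fell. Of the 9 genes only Slc38a2 is listed, with 8922, 9197 and 8821 normalised read counts in the Dox libraries, against 9756, 9882 and 9652 in the untreated libraries. The groups did not overlap. The means were 8980.0 ± 195 with Dox and 9763 ± 115 without (SD, n = 3 each), so Slc38a2 fell by 8.02% with Dox, and the authors' deposited table gives a log2 change of -0.12 ± 0.032 with an adjusted p of 0.0121. In YAPCA cells the authors' deposited table gives -0.16 ± 0.029 for the same gene. Slc38a2 thus fell with Dox in cells with and without the transgene, and the difference between the genotypes was not tested, because the 2 tables were normalised separately. For the other 8 genes the wild-type response to Dox was not analysed here. None of the 42 listed wild-type sites lay near the 9 genes.

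**Figure D5:**
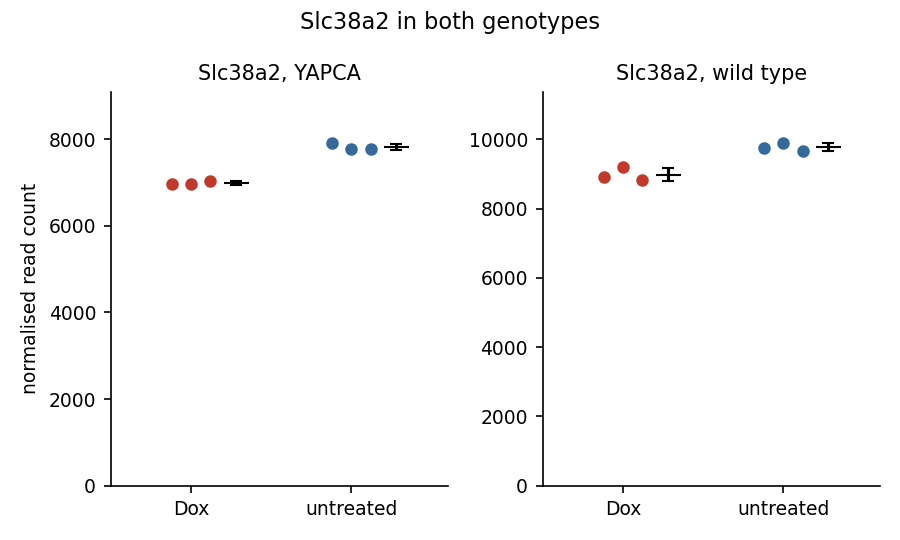
Normalised read counts of Slc38a2 in the 3 Dox and 3 untreated RNA libraries of YAPCA and of wild-type cells; points are single libraries and the black bar is the mean with its SD. Slc38a2 is lower with Dox in both genotypes, at a mean of 6986 against 7824 in YAPCA cells and 8980.0 against 9763 in wild-type cells.

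The authors' gene set scores for amino acid transport across the plasma membrane were -0.183, -0.274 and -0.148 in YAPCA Dox libraries, against 0.169, 0.114 and 0.063 in YAPCA untreated libraries. The groups did not overlap, but the authors' FDR was 0.384. In wild-type cells the scores were -0.046, 0.069 and -0.389 with Dox, against 0.224, 0.278 and -0.080 without (FDR 0.467), and the groups overlapped. The set shares genes with the carriers above. Sets were taken by amino acid, glutamate or solute carrier in their names, and none held glutamine. The glutamate sets include neurotransmitter release and kainate receptor activation. Of all 15 sets taken per genotype, 0 had an authors' FDR below 0.05 in YAPCA cells and 4 in wild-type cells. Over all sets of the authors' tables the share was 12.8% in YAPCA cells and 12.1% in wild-type cells. In wild-type cells 3 of the 4 were higher with Dox, namely selenoamino acid metabolism (difference 0.807), metabolism of amino acids and derivatives (0.618) and the GCN2 response to amino acid deficiency (0.776). The set for transport of inorganic ions, amino acids and oligopeptides was lower (-0.397), and the authors' FDR is listed as 0 for each. In the wild-type Dox libraries the selenoamino acid set scored 0.516, 0.101 and 0.687 and the GCN2 set 0.509, 0.046 and 0.691, so the scores were close. Which genes the 3 higher sets share was not examined, so these cannot be read as separate results. In YAPCA cells 1 set had an unadjusted p below 0.05 in the authors' table, that for amino acid deprivation, with scores of -0.167, -0.250 and -0.380 with Dox, against 0.272, 0.392 and 0.119 without (p = 0.015, FDR 0.0894).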

How the data were processed

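The submitters' processing notes name HISAT2, featureCounts, DESeq2 and Picard, besides Bowtie2, MACS2, DiffBind, HOMER, SAMtools and bedtools, and the build mm10, with no role or order. The sources used here do not give versions, strandedness, the transposase shift or any pooling before peak calling. The RNA-seq signal per gene is a normalised read count, which the authors scaled by 1 factor per sample (seen from the deposited columns). The authors' log2 fold changes and p-values of genes carry DESeq2's column names, per the file headers. The wild-type table adds a linear fold ratio, per the file headers. Log2 accessibility per group, fold and FDR of the sites are the authors' and carry DiffBind's column names, per the file headers, and the wild-type site values are joined in 1 text field as deposited. The gene set score per sample is the authors' own, as deposited, and its tool is not stated.

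Each YAPCA column proved to be whole multiples of 1 value (100% of values at a tolerance of 0.01 read), giving 16351891 to 28734643 reads a library. Replicates differed beyond sampling noise (chi-square over its degrees of freedom 1.76 to 3.19) and were each counted as a sample. YAPCA RNA was tested with limma 3.58.1 in R 4.3.3 (moderated, intensity trend, two-sided, pseudocount 1, mean of at least 10), with Benjamini-Hochberg adjustment over 13477 genes. For low genes this scale gives too small a change. edgeR 4.0.16 and DESeq2 1.42.0 on the recovered reads, other scaling, pseudocounts, filters and thresholds, a replicate block and leaving out each library were alternatives. The limma, edgeR and DESeq2 fits were tested on simulated counts. Sites were assigned to the nearest RefSeq gene body (GRCm38.p6), and tables were read with Python 3.11.15.

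The 9 genes and the companion lists were chosen with earlier results of these data known. Named are all 9 genes, up to 4 genes of each list by adjusted p among those that passed, and Atf4, Ddit4, Trib3, Asns, Myc, Yap1, Ccn1 and Ccn2, and some genes this rule takes are left out as not reported here. Slc7a6, Slc7a7, Gfpt1, Ctps2, Txnrd1 and Cth were named after their values were seen. Levels were not compared between genes.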

Additional observations from a re-analysis of the deposited data

How the results depend on the processing

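The calls on the 9 genes did not change under edgeR, DESeq2, TMM scaling, other pseudocounts, filters, the stricter threshold or the replicate block: the same 4 passed in each, with log2 changes of 0.48 to 0.49 for Slc7a1, -0.41 to -0.40 for Slc7a11, -0.27 to -0.26 for Slc1a4 and -0.17 to -0.16 for Slc38a2. Without 1 library at a time they ran from 0.43 to 0.53, -0.48 to -0.35, -0.29 to -0.23 and -0.17 to -0.16 in that order, and all 4 still passed, while 2879 to 3583 of all genes passed. Genes near 0 changed sign there without passing: Slc1a5 ran from -0.0056 to 0.056, Slc38a1 from -0.072 to 0.0016, Glul from -0.00043 to 0.067, Slc7a5 from -0.0024 to 0.072 and the enzyme gene Cad from -0.023 to 0.032. At an adjusted p below 0.01, 2348 genes passed, of which 1232 rose and 1116 fell. The replicate block, under which 4350 genes passed, changed no call on the 9 genes but brought in Yap1 (adjusted p = 0.0355), which also passed without Dox replicate 3 (0.0451). The same-numbered libraries did not deviate together (r = -0.0007, 0.036 and 0.085), so the numbers were not taken to pair samples. Of the sites, 3 gained and 0 lost sites had an FDR below 0.001, and 4 gained and 2 lost sites overlapped a gene body. Within 100 kb of the start of the 6 genes with a start site in the promoter table lay 25 gained and 4 lost sites. The samples are labelled technical replicates, the site tables hold no value per library, and the wild-type genes are listed because they passed the authors' test, so neither was tested again.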

Other observations

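Of 18 cytosolic aminoacyl-tRNA synthetase genes, whose enzymes load amino acids onto tRNA, all were tested in YAPCA cells, and 4 rose, 2 fell and 12 did not pass, with a median log2 change of 0.01. The share that passed, 33.3%, was near the 27.9% of all tested genes. Rars, the arginyl enzyme, had 5105, 4832 and 4849.5 normalised read counts with Dox, against 3957, 4052 and 3889.5 without, a log2 change of 0.31 ± 0.030 (SE; limma, adjusted p = 1.16e-06). Tars, the threonyl enzyme, had 5645 ± 16.7 with Dox and 5223 ± 50.7 without (SD, n = 3 each; limma, adjusted p = 0.00365). Aars, the alanyl enzyme, fell to 8423 ± 83.9 with Dox, against 9559 ± 78.4 without, and Qars, the glutaminyl enzyme, fell to 2507 ± 36.8 with Dox, against 2733 ± 46.0 without (limma, adjusted p = 3.24e-05 and 0.00637).

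In the authors' gene set scores for the GCN2 response to amino acid deficiency, YAPCA untreated replicate 1 stood at -0.596, against 0.280 and 0.428 in the other untreated libraries, while the YAPCA Dox libraries stood at 0.203, 0.089 and -0.236 (authors' FDR 0.946). In wild-type cells the same set stood at 0.509, 0.046 and 0.691 with Dox, against 0.023, -0.510 and -0.594 without.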
